A study of Mus musculus with 16 samples.

Results

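The cell cycle and proliferation genes are 40 genes of S phase and mitosis, read by gene symbol from the 37310 rows of the count table, and all 40 were present. They comprise 14 genes of DNA replication and 26 genes of mitosis, and the question they address is whether adipose tissue macrophages (ATMs) carry more or less of the transcripts of dividing cells as a high-fat diet (HFD) is prolonged and when the transcription factor IRF5 is deleted. RNA-seq was made from F4/80+ cells of mouse epididymal fat, F4/80 being a surface protein of mature macrophages. The 16 libraries formed 4 groups of 4: WT and IRF5-KO mice, each on HFD for 4 weeks (short-term, ST-HFD) or 12 weeks (long-term, LT-HFD). The mice were male, and the methods describe a cross of mice with a floxed Irf5 gene (flox/flox) to mice with LysM-Cre, a recombinase knocked into Lyz2 and therefore active across myeloid cells rather than in macrophages of fat alone. Whether the WT mice carried the floxed gene is not given in the sources used here. The LT-HFD mice were also older at sampling than the ST-HFD mice, since the methods give 1 age range at the start for all mice, so that age and diet duration cannot be told apart. Nothing in the labels says whether a library came from 1 mouse or from pooled mice, and the spread between libraries may include technical spread.

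Dividing cells copy their DNA in S phase and separate the copies in mitosis. The S-phase genes encode the MCM helicase that opens the double helix, the sliding clamp PCNA that holds the polymerase on its template, and enzymes that supply nucleotides, and they are switched on by E2F factors as cells leave the resting state. The mitosis genes encode cyclins, kinases, motor proteins and chromosome proteins, peak later in the cycle, and are controlled largely through the DREAM and MuvB complexes at a short promoter element named CHR (cell cycle genes homology region), often beside CCAAT boxes bound by NF-Y. In obese fat, macrophage numbers grow both by recruitment of blood monocytes and by division of macrophages within the tissue, and Ki-67, the product of Mki67, is the usual stain for such dividing cells.

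The promoters of the 40 genes are shown first because the mitosis genes and the replication genes differed in the elements they hold. Promoter windows of 300 bases, from 250 bases before to 50 bases after the transcription start, came from RefSeq on the build GRCm38.p6 and were found for 34 of the 40 genes. Ccna2, Kif20a, Aurkb, Mcm4, Tpx2 and Gins2 had no window. The 5 windows printed here belong to 3 genes whose transcripts fell most steadily with diet duration (Mki67, Cenpf and Kif23), to Cdk1, whose transcripts did not, and to Pcna, the gene of the group whose transcripts were higher on LT-HFD in WT. All 5 lie on the minus strand and are written 5′ to 3′ along the gene, with chr7:135716330-135716629 for Mki67, chr1:189688037-189688336 for Cenpf, chr9:61946750-61947049 for Kif23, chr10:69352863-69353162 for Cdk1 and chr2:132253131-132253430 for Pcna. Capitals mark the CHR (TTTGAA or TTTAAA), the CCAAT box (CCAAT) and an E2F motif (TTCCCGC or TTGGCGC), each on either strand.
Mki67: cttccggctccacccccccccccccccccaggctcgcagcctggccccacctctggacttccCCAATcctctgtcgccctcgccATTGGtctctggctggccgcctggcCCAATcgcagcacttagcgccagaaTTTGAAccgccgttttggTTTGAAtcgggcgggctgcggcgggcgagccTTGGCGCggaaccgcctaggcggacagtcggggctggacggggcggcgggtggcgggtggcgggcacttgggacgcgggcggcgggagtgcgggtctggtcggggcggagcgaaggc
Cenpf: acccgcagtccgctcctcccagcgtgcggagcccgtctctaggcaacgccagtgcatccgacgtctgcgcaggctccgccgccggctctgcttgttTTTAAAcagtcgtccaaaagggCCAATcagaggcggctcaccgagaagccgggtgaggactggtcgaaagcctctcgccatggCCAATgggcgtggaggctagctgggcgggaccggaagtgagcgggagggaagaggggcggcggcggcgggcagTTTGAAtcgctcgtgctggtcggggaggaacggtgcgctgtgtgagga
Kif23: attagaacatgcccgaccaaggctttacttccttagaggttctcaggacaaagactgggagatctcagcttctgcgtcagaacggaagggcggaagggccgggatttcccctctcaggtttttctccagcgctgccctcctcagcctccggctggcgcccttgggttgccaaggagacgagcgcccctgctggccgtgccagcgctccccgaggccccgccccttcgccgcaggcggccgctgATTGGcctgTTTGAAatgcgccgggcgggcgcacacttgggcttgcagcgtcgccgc
Cdk1: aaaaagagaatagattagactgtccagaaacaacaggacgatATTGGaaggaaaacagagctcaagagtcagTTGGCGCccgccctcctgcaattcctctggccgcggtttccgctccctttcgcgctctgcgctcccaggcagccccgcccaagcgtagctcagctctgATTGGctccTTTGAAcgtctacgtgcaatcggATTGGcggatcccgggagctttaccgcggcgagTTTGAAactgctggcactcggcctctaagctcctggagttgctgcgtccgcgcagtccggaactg
Pcna: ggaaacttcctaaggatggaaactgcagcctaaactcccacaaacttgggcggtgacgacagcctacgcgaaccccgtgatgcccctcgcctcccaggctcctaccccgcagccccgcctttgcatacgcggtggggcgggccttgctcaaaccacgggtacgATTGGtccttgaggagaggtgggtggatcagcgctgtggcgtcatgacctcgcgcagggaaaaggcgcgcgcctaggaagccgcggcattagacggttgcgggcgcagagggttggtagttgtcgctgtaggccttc

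The Mki67 window held 2 CHR motifs, at 116 and 98 bases before the start, with 3 CCAAT boxes further upstream and 1 E2F motif nearer the start. In Cenpf, 1 CHR lay 2 bases past the start and another 154 bases before it. Kif23 held 1 CHR, 2 bases past the start, and 1 CCAAT box. The Cdk1 window held the same kinds of motif as that of Mki67 (2 CHR motifs, 3 CCAAT boxes and 1 E2F motif). Pcna had a CCAAT box and no CHR.

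Among the 22 mitosis genes with a window, 19 (86.4%) held a CHR, against 6 of 12 replication genes (50%), 30.6% of all 27025 genes with a window and 22.3% of the 8119 tested genes with one. A CHR and a CCAAT box stood together in 18 of the 22 mitosis genes (81.8%), in 5 of the 12 replication genes (41.7%), in 12.2% of all genes and in 9.02% of tested genes. E2F motifs were found in 6 of the 12 replication genes (50%), namely Mcm3, Mcm5, Mcm6, Mcm7, Rrm1 and Uhrf1, in 5 of the 22 mitosis genes (22.7%), in 7.79% of all genes and in 14.4% of tested genes. Counting TTTGAA alone as a CHR left 16 of 22 mitosis genes (72.7%) and 2 of 12 replication genes (16.7%), against 20.2% of all genes and 14.2% of tested genes. A match of letters is a description of the window and was not tested for binding.

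All 40 genes were above the count filter in every fit. In these libraries 10 of 10 macrophage markers passed the filter, while none of 10 T and NK cell markers and none of 6 neutrophil markers did. Passing too were 10 of 10 fibroblast and preadipocyte, 7 of 8 adipocyte and 4 of 7 dendritic cell markers. So did 4 of 6 endothelial cell and 4 of 6 monocyte markers. Of B and plasma cell markers 2 of 7 passed, of mast cell markers 2 of 5 and of mesothelial cell markers 2 of 5. Levels are given as CPM, a gene's counts at a common library size, after scaling by the trimmed mean of M values (TMM), in the order of replicates 1 to 4. Irf5 itself was not lower in the IRF5-KO libraries, at 203, 252, 248 and 248 CPM in WT against 250, 253, 274 and 270 CPM in IRF5-KO on ST-HFD and at 170 to 213 CPM against 206 to 253 CPM on LT-HFD, a total over the gene that does not separate deleted from retained exons. Lyz2, the gene into which Cre is inserted, was lower in all 8 libraries labelled IRF5-KO (1395 to 2062 CPM) than in all 8 labelled WT (2968 to 4043 CPM). ST-HFD and LT-HFD libraries differed in ways that bear on every change with diet duration. Total counts were 3860469 to 4958131 (ST-HFD) against 3279332 to 3792898 (LT-HFD), and the 3 most counted features, an annotated miRNA (mir-689-2) and both mitochondrial rRNAs, took 18.6 to 24.1% against 26.1 to 34.5% of counts. Genes with over 8 kb of exons took 17.7 to 18.9% of counts on ST-HFD against 11.3 to 14.01% on LT-HFD, and the summed CPM of 10 fibroblast and preadipocyte markers was 684 to 1674 on ST-HFD against 3199 to 9357 on LT-HFD.

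Per kilobase of exon, the clamp gene Pcna had the highest mean level of the 40 genes over all libraries (62.9 CPM per kb), followed by the helicase genes Mcm3 (26.6 CPM per kb) and Mcm6 (19.04 CPM per kb) and by Mki67 (17.7 CPM per kb). This order pools both diet durations, and Mki67 itself was at 31.2 (WT) and 28.4 (IRF5-KO) CPM per kb on ST-HFD and at 5.50 and 5.51 CPM per kb on LT-HFD. Top2a, which encodes the topoisomerase that untangles chromosomes, stood at 8.73 CPM per kb. The kinase gene Cdk1 (2.87 CPM per kb) and the cyclin gene Ccnb1 (2.01 CPM per kb) were low, and the lowest levels belonged to Tyms (1.20 CPM per kb), the thymidylate synthase, and Ncapg (1.18 CPM per kb), a condensin subunit. At these depths the least counted genes rested on few counts. The lowest counts were 5 for Cdc45 and Bub1, 6 for Plk1 and Aurka, 8 for Ncapg and 9 for Cdc20 and Kif20a. They were 11 for Ccnb1 and Cenpe, 12 for Tyms and Cdca3, and 17 for Cdk1.

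Summed as a class, transcripts of the 26 mitosis members were lower on LT-HFD than on ST-HFD in both genotypes, a separation that rested on Mki67. The sums of the 14 replication members overlapped. Summed over the 26 mitosis genes, WT ATMs held 1076, 656, 613 and 1298 CPM on ST-HFD and 403, 274, 495 and 238 CPM on LT-HFD. IRF5-KO ATMs held 979, 744, 548 and 948 CPM on ST-HFD and 401, 538, 444 and 341 CPM on LT-HFD. Every LT-HFD library lay below every ST-HFD library of its genotype, although the IRF5-KO libraries at 538 and 548 CPM almost met. Without Mki67 the mitosis sum was 597 ± 225 CPM (SD, n = 4) in WT on ST-HFD against 297 ± 108 CPM on LT-HFD, and 520 ± 147 against 375 ± 74.7 CPM in IRF5-KO, and the groups overlapped in both genotypes. The 14 replication genes summed to 721 ± 103 CPM in WT on ST-HFD and 614 ± 140 CPM on LT-HFD, and to 643 ± 106 and 651 ± 64.6 CPM in IRF5-KO. The ratio of the mitosis sum to the replication sum was 0.974 to 1.58 on ST-HFD against 0.502 to 0.741 on LT-HFD, with no overlap in either genotype. In bulk libraries such as these, fewer dividing cells and less RNA per dividing cell cannot be told apart.

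**Figure D1:**
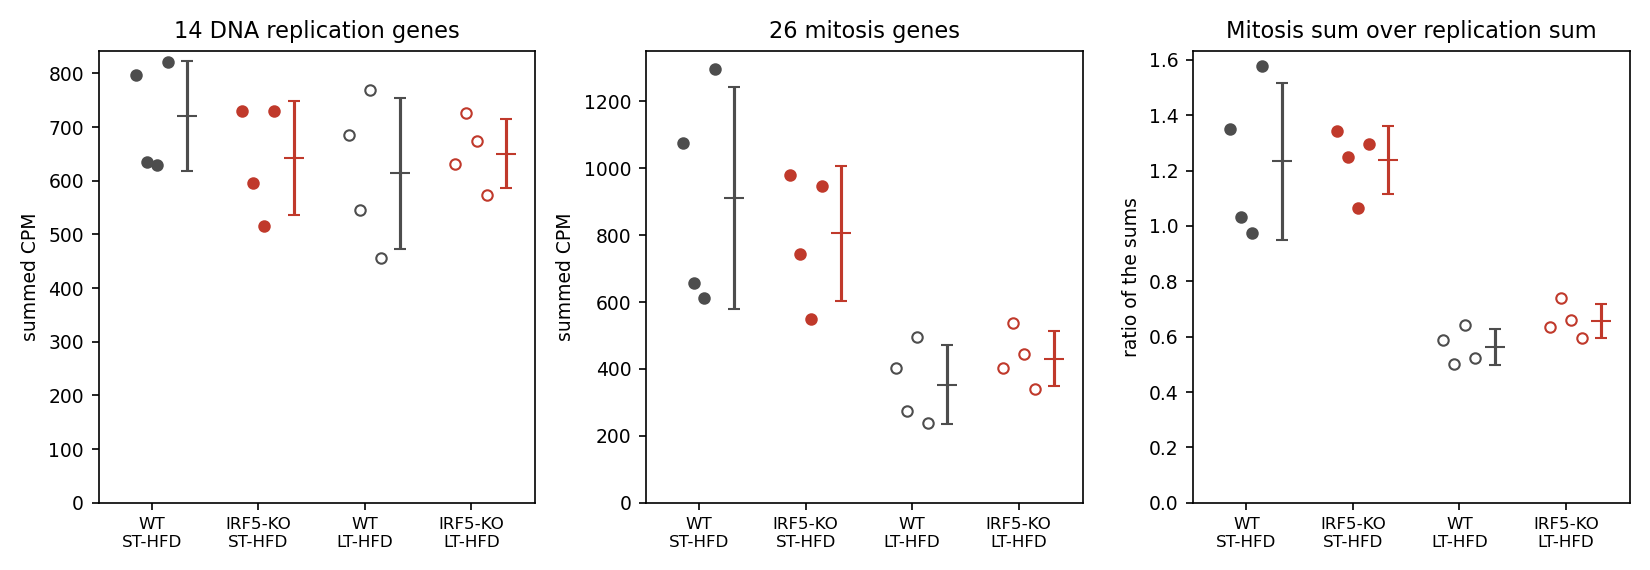
Summed CPM of the 14 replication genes (left) and the 26 mitosis genes (middle), and the ratio of the mitosis sum to the replication sum (right), in each of the 16 libraries (points), with the mean and SD of each group of 4 beside them. Grey points are WT and red points IRF5-KO, filled for ST-HFD and open for LT-HFD. The mitosis sums and the ratios separate ST-HFD from LT-HFD in both genotypes, and the replication sums do not.

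In WT ATMs, 11 of the 40 genes differed between LT-HFD and ST-HFD at an adjusted p under 0.05 (quasi-likelihood test of edgeR, p-values adjusted by Benjamini-Hochberg over all 11560 genes). That share (27.5%) is near the 25.3% of all genes tested that differed. By direction, 10 genes were lower (25.0% of the 40), against 13.2% of all genes, and 1 was higher, against 12.1%. The 10 lower genes were Mki67, Cenpf, Cenpe, Kif20a, Tpx2, Kif23, Top2a, Nusap1, Uhrf1 and Bub1b, and the higher gene was Pcna. Nearly all members pointed down, with 39 of 40 log2 fold changes below 0 (48.1% of all genes) and a median of -0.57 (0.02 over all genes). Without WT LT-HFD replicate 2 the test called 7 genes, without WT LT-HFD replicate 3 it called 17, and without WT ST-HFD replicate 4 the median was -0.36. Of the 10 lower genes, 7 kept their call in all 16 fits that left out 1 library, Nusap1 in 13, and Uhrf1 and Bub1b in 12 each. Of the 40 genes, 7 had LT-HFD libraries that all lay below the ST-HFD libraries (17.5%), against 13.8% of all genes.

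In IRF5-KO ATMs, 4 of the 40 genes were lower on LT-HFD and none was higher (10.0% of the 40, against 32.8% of all genes that differed, 17.2% that were lower and 15.6% that were higher). These were Mki67, Cenpf, Cenpe and Kif23, and all 4 were also lower in WT. Only these 4 of the 40 genes had LT-HFD libraries that all lay below the ST-HFD libraries (10.0%), against 15.2% of all genes. Over all 40 genes, these 4 included, 22 log2 fold changes were below 0 (46.9% of all genes), with a median of -0.09. That median ranged from -0.26 (without IRF5-KO ST-HFD replicate 3) to 0.08 (without IRF5-KO ST-HFD replicate 1), and was also above 0 without IRF5-KO ST-HFD replicate 4. For 6 genes called in WT and not in IRF5-KO (Kif20a, Tpx2, Top2a, Nusap1, Uhrf1 and Bub1b), the difference between the genotypes' changes was itself tested and none passed.

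**Figure D2:**
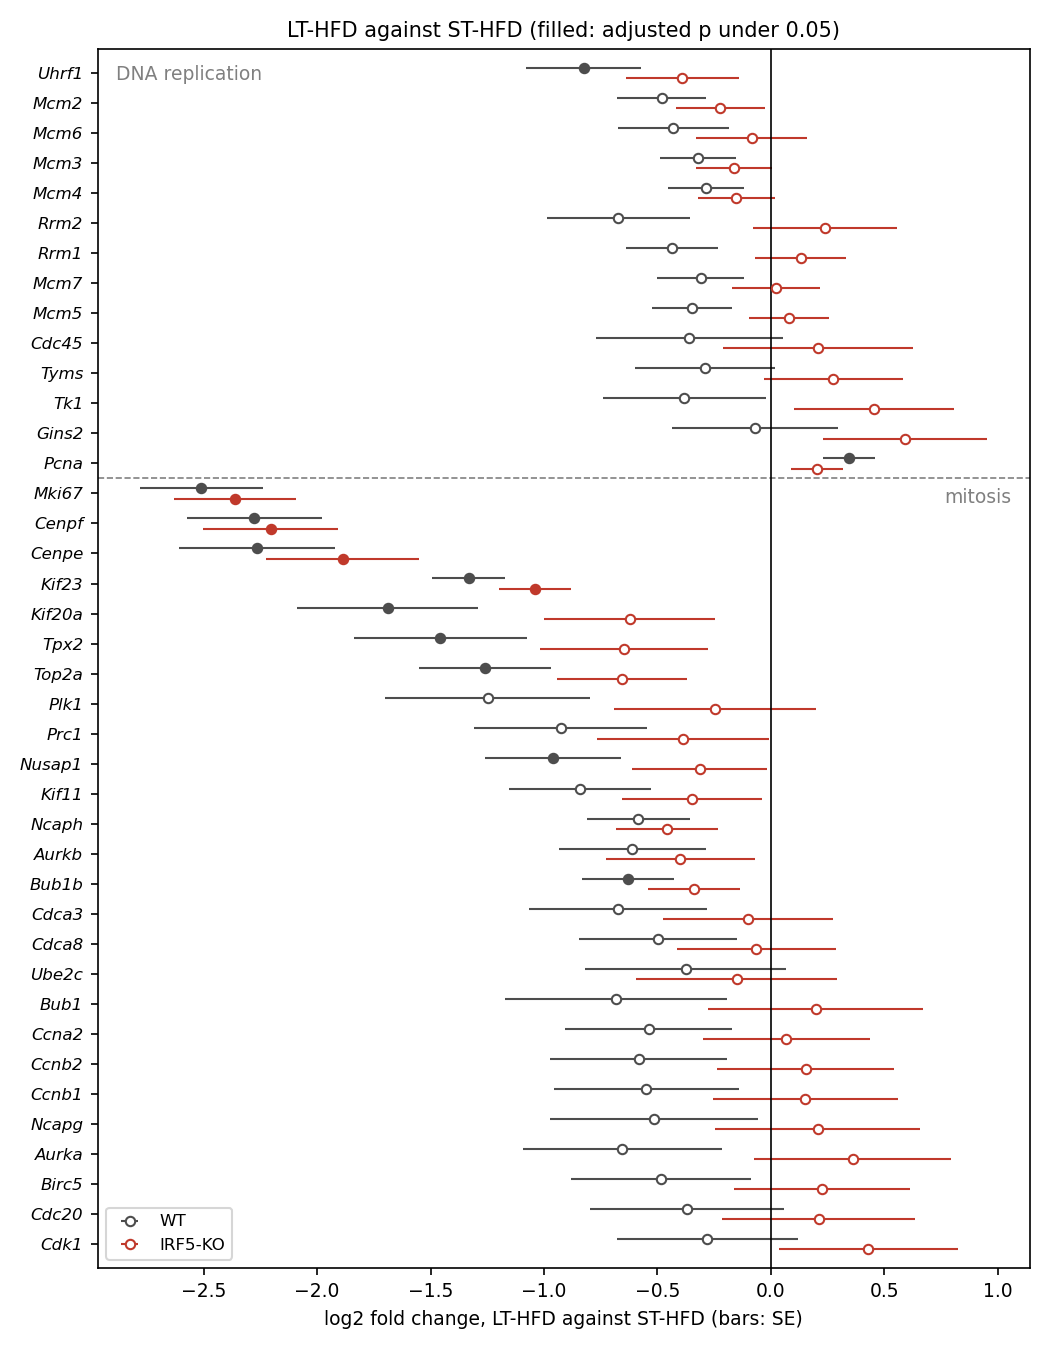
Log2 fold change of each of the 40 genes, LT-HFD against ST-HFD (horizontal axis), in WT (grey) and IRF5-KO (red), with SE bars from the fit over all 16 libraries. Filled points have an adjusted p under 0.05, and the dashed line divides replication genes (above) from mitosis genes (below). Mki67, Cenpf, Cenpe and Kif23 are filled in both genotypes, and Pcna is filled on the higher side in WT.

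Mki67, whose protein coats the surface of mitotic chromosomes, showed the largest change of the 40 genes. WT ATMs held 389, 255, 189 and 425 CPM on ST-HFD and 64.0, 60.8, 64.5 and 31.8 CPM on LT-HFD. IRF5-KO ATMs held 350, 282, 210 and 299 CPM on ST-HFD and 65.5, 62.3, 56.7 and 37.1 CPM on LT-HFD. The lowest ST-HFD library of either genotype thus exceeded the highest LT-HFD library by a wide margin. In WT the level was 5.69-fold lower (log2 fold change -2.51, SE 0.27, edgeR adjusted p 4.27e-06), and in IRF5-KO 5.14-fold lower (log2 fold change -2.36, SE 0.27, edgeR adjusted p 4.58e-06). The LT-HFD libraries with the fewest Mki67 counts still held 117 in WT and 120 in IRF5-KO.

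Cenpf and Cenpe, of the outer kinetochore, came next. Cenpf, which encodes a large coiled-coil protein that gathers at kinetochores, stood at 50.1, 33.4, 28.1 and 65.8 CPM in WT on ST-HFD and at 11.1, 8.04, 12.5 and 4.89 CPM on LT-HFD. In IRF5-KO it was 49.9, 38.8, 30.0 and 48.2 CPM against 7.46, 11.4, 10.4 and 6.80 CPM. The groups were apart in both genotypes, with log2 fold changes of -2.28 (SE 0.30) in WT and -2.20 (SE 0.30) in IRF5-KO. Cenpe, the kinesin that carries chromosomes to the spindle equator, fell from 38.6, 20.4, 18.98 and 52.2 CPM to 10.0, 3.84, 8.90 and 4.08 CPM in WT, a log2 fold change of -2.26 (SE 0.34, edgeR adjusted p 0.000122). In IRF5-KO it fell from 37.5, 29.1, 22.9 and 34.7 CPM to 8.85, 8.95, 6.18 and 9.58 CPM, a log2 fold change of -1.89 (SE 0.34, edgeR adjusted p 0.000385). No LT-HFD library reached the level of any ST-HFD library for either gene.

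Among the motor and midzone genes, Kif23, a kinesin of the central spindle needed for the cells to part, had closely grouped replicates. It was 47.2, 40.6, 33.9 and 49.6 CPM in WT on ST-HFD and 20.4, 13.6, 18.4 and 15.5 CPM on LT-HFD, a log2 fold change of -1.33 (SE 0.16, edgeR adjusted p 1.47e-05). IRF5-KO libraries held 36.3, 41.2, 40.4 and 38.4 CPM against 20.2, 20.9, 21.1 and 13.6 CPM, a log2 fold change of -1.04 (SE 0.16, edgeR adjusted p 9.94e-05). These ranges did not meet in either genotype. Kif20a, another kinesin of the midzone, was 19.1, 11.8, 11.1 and 27.9 CPM in WT on ST-HFD and 5.43, 3.14, 8.62 and 4.35 CPM on LT-HFD (log2 fold change -1.69, SE 0.40). In IRF5-KO the groups overlapped, and its log2 fold change was -0.62 (SE 0.38, edgeR adjusted p 0.220). Kif20a shares 1271 exon bases with Cdc23 on the opposite strand. Other long stretches shared with an opposite gene belong to Gins2 (2758 bases, Gse1), Ncapg (944, Lcorl), Prc1 (911, Rccd1), Ube2c (592, Tnnc2) and Ccna2 (510, Exosc9), the first of which is longer than that of Kif20a, and other members share less or none. Whether counting used strand is not given in the sources used here. Kif11, the kinesin that pushes spindle poles apart, and Prc1, which bundles midzone microtubules, had log2 fold changes of -0.84 (SE 0.31) and -0.93 (SE 0.38) in WT that missed the threshold. Kif11 passed as lower once the genotypes were averaged (log2 fold change -0.60, SE 0.22, edgeR adjusted p 0.0357), a call held in 7 of 16 fits that left out 1 library and lost with the replicate block.

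Top2a was 137, 75.2, 87.5 and 157 CPM in WT on ST-HFD and 58.3, 33.5, 63.4 and 35.1 CPM on LT-HFD, 2.40-fold lower with no overlap (edgeR adjusted p 0.00366). The IRF5-KO values were 106, 85.1, 54.3 and 128 CPM against 52.8, 74.5, 68.3 and 41.7 CPM, and the groups overlapped (log2 fold change -0.65, SE 0.29, edgeR adjusted p 0.0890), although the fit without IRF5-KO ST-HFD replicate 3 called it (-0.85). The spindle assembly genes Tpx2 and Nusap1 were lower in WT, with log2 fold changes of -1.46 (SE 0.38) and -0.96 (SE 0.30), while their libraries overlapped between diet durations. The checkpoint kinase gene Bub1b was lower in WT without overlap (log2 fold change -0.63, SE 0.20, edgeR adjusted p 0.0303), whereas its relative Bub1 was at -0.68 with an SE of 0.49 and did not pass. The condensin gene Ncaph was at -0.58 (SE 0.23) in WT and -0.46 (SE 0.23) in IRF5-KO, and passed once the genotypes were averaged (log2 fold change -0.52, SE 0.16, edgeR adjusted p 0.0136).

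Cdk1, its cyclin genes Ccna2, Ccnb1 and Ccnb2, and the kinase genes Plk1, Aurka and Aurkb did not pass the edgeR test in either genotype. Cdk1, the kinase that starts mitosis, stood at 18.5, 8.36, 9.11 and 21.7 CPM in WT on ST-HFD and at 14.7, 8.73, 19.7 and 4.62 CPM on LT-HFD. In IRF5-KO the levels were 18.2, 7.72, 8.55 and 17.0 CPM on ST-HFD and 13.5, 21.4, 20.2 and 14.5 CPM on LT-HFD. The ranges overlapped throughout, and the mean change of both genotypes was 0.07 on the log2 scale with an SE of 0.28. Ccna2, the cyclin of S phase and early mitosis, was 29.5, 12.5, 18.7 and 42.0 CPM in WT on ST-HFD and 18.5, 11.5, 27.5 and 13.3 CPM on LT-HFD. In IRF5-KO it was 29.3, 19.04, 13.6 and 25.6 CPM against 19.6, 36.3, 22.5 and 13.3 CPM. Its ranges overlapped in both genotypes, with a mean log2 fold change of -0.24 (SE 0.26).

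Ccnb1, the main partner of Cdk1, was 10.3, 3.71, 9.87 and 16.8 CPM in WT on ST-HFD and 6.51, 3.84, 11.7 and 5.71 CPM on LT-HFD. IRF5-KO libraries held 14.04, 5.92, 5.08 and 6.65 CPM against 8.02, 8.13, 8.43 and 11.1 CPM. These overlapped, with a mean log2 fold change of -0.20 (SE 0.29). Birc5, the survivin subunit of the chromosomal passenger complex that corrects chromosome attachment, was 18.0, 11.4, 9.11 and 26.6 CPM in WT on ST-HFD and 12.5, 5.59, 17.2 and 11.1 CPM on LT-HFD. The IRF5-KO values were 19.9, 14.1, 7.62 and 21.4 CPM against 13.5, 30.1, 18.5 and 11.4 CPM. It too overlapped, with a mean log2 fold change of -0.13 (SE 0.28). Plk1, a kinase of spindle building, was at -1.25 (SE 0.45, edgeR adjusted p 0.0511) in WT and -0.25 (SE 0.45) in IRF5-KO. In WT it passed with DESeq2 (adjusted p 0.0444) and with offsets for exon length and GC content. Cdc20 and Ube2c, which direct the anaphase-promoting complex, had mean log2 fold changes of -0.08 (SE 0.30) and -0.26 (SE 0.31), Aurka of -0.15 (SE 0.31) and Aurkb of -0.50 (SE 0.23), and none of these passed.

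Of the 14 replication genes, Pcna moved against the mitosis genes. It was 139, 131, 129 and 142 CPM in WT on ST-HFD and 192, 176, 179 and 139 CPM on LT-HFD, 1.27-fold higher (log2 fold change 0.34, SE 0.12, edgeR adjusted p 0.0369), with 1 LT-HFD library inside the ST-HFD range. In IRF5-KO the levels were 129, 167, 131 and 126 CPM against 143, 152, 180 and 161 CPM, and the change did not pass (log2 fold change 0.20, SE 0.12, edgeR adjusted p 0.194). The call in WT held in 10 of 16 fits that left out 1 library, and was lost without the filter on low counts, with the replicate block, and with offsets for exon length and GC content (log2 fold change 0.16). Between diet durations, libraries of equal number did not meet the criterion for pairing given with the processing. Uhrf1, which brings DNA methylation to new strands, was the 1 replication gene lower in WT (log2 fold change -0.83, SE 0.25, edgeR adjusted p 0.0223).

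The 6 helicase genes Mcm2 to Mcm7 lay between -0.48 and -0.29 on the log2 scale in WT, without a call, and between -0.22 and 0.08 in IRF5-KO. Mcm5 stood at 63.4, 45.3, 51.6 and 64.3 CPM in WT on ST-HFD and at 48.3, 39.5, 55.1 and 33.7 CPM on LT-HFD. In IRF5-KO it was 52.1, 42.4, 36.5 and 55.4 CPM against 46.7, 58.8, 52.0 and 39.2 CPM, so that its groups overlapped in both genotypes. Mcm2 alone of the helicase genes passed once the genotypes were averaged (log2 fold change -0.35, SE 0.14, edgeR adjusted p 0.0492), a call that DESeq2, the replicate block and the offsets for length and GC content each lost.

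The enzymes of nucleotide supply overlapped as well. Rrm2, the regulated subunit of ribonucleotide reductase, was 17.4, 12.8, 15.2 and 23.6 CPM in WT on ST-HFD and 13.0, 7.69, 18.1 and 4.35 CPM on LT-HFD (log2 fold change -0.67, SE 0.32, edgeR adjusted p 0.135). IRF5-KO libraries held 13.6, 12.6, 7.62 and 13.0 CPM against 13.0, 16.8, 14.05 and 11.4 CPM. Over the 16 fits that left out 1 library the WT change of Rrm2 ran from -1.04 to -0.40. It passed in 1 of them, without WT LT-HFD replicate 3, at -1.04. Tyms was 9.37, 5.11, 6.58 and 9.61 CPM in WT on ST-HFD against 7.60, 4.19, 8.90 and 4.35 CPM on LT-HFD, and 5.01, 4.63, 8.32 and 9.85 CPM in IRF5-KO on ST-HFD against 8.02, 10.3, 8.43 and 6.80 CPM on LT-HFD. Its mean change was -0.01 (SE 0.22). Tk1, the thymidine kinase of the salvage route, was at 0.04 (SE 0.25), and Gins2 and Cdc45, which load onto the helicase, were at 0.26 (SE 0.26) and -0.08 (SE 0.29).

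**Figure D3:**
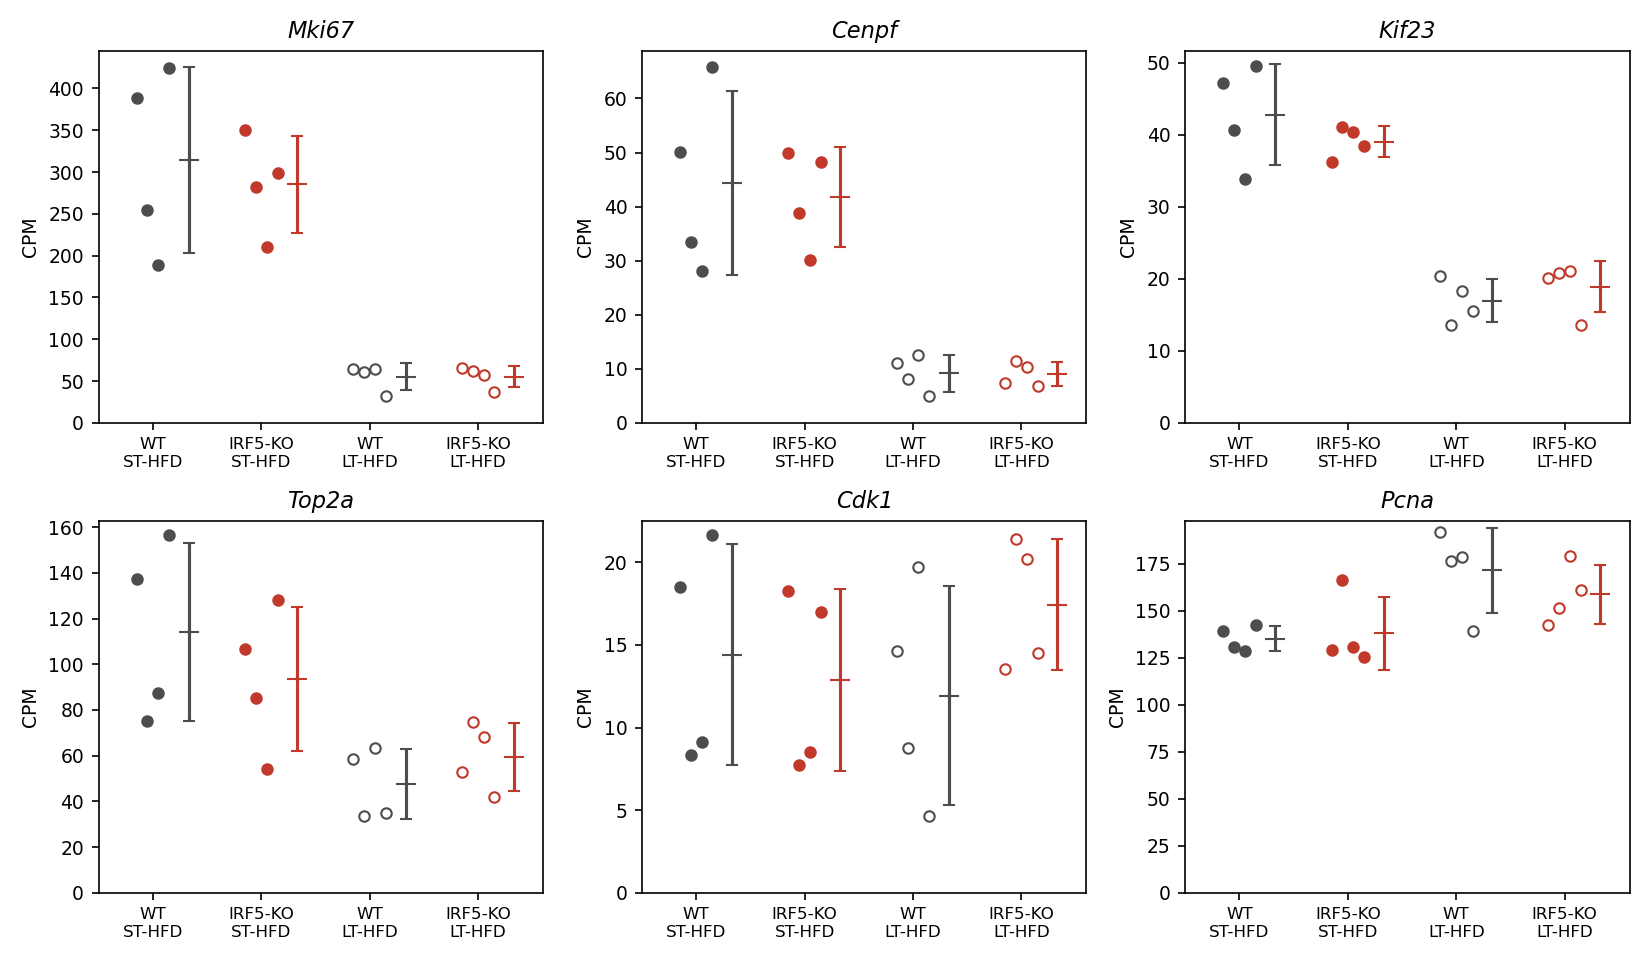
CPM of 6 genes in each of the 16 libraries (points), with the mean and SD of each group of 4 beside them. Grey is WT and red IRF5-KO, filled for ST-HFD and open for LT-HFD. In Mki67, Cenpf and Kif23 every LT-HFD library lies below every ST-HFD library of its genotype, in Cdk1 the groups overlap, and in Pcna 3 of 4 WT libraries on LT-HFD lie above the ST-HFD range.

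Over both genotypes together, 14 of the 40 genes differed with diet duration (35.0%), against 43.6% of all genes. By direction, 13 were lower (32.5%), against 21.6% of all genes, and 1 was higher, against 22%. The median log2 fold change was -0.25, and -0.40 without WT LT-HFD replicate 3. By size, 6 of 40 were below -1 (15.0%), against 4.34% of all genes, and 3 of 40 were below -2 (Mki67, Cenpf and Cenpe), against 0.285%. Leaving out 1 library at a time gave 12 to 17 calls.

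Exon length moved with this result. The 3 genes with the largest falls have long exons in sum (Cenpf 15.4 kb, Mki67 10.1 kb and Cenpe 8.62 kb), and across the 40 genes the mean log2 fold change and the log2 of exon length had a Pearson correlation of -0.56, a description over 40 genes from the same 16 libraries. Over the 11362 genes with a length the correlation was -0.20. The 9 members over 7 kb had a median of -0.96 and the 31 shorter ones of -0.24, while the 2841 tested genes over 7 kb had a median of -0.17 and the 8521 shorter ones of 0.09. A log2 fold change below -2 was found in 1.19% of tested genes over 10 kb and in 0.413% of those of 8 to 10 kb. Rrm1, the large subunit of ribonucleotide reductase, has 11.01 kb of exons and was at -0.15 (SE 0.14), with -0.43 in WT and 0.13 in IRF5-KO. With offsets for exon length and GC content added to the fit, Mki67 was at -2.23, Cenpe at -2.02, Cenpf at -1.94 and Kif23 at -1.08 (edgeR, all passing), Plk1, Aurkb and Mcm4 also passed as lower, Mcm2 no longer passed as lower (-0.13), and Pcna no longer passed as higher (log2 fold change 0.07). The offsets take out a smooth trend over all genes of each library and were added after seeing the data. They cannot separate length from diet duration for a single gene. The part that length plays in the changes of these genes was not tested.

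**Figure D4:**
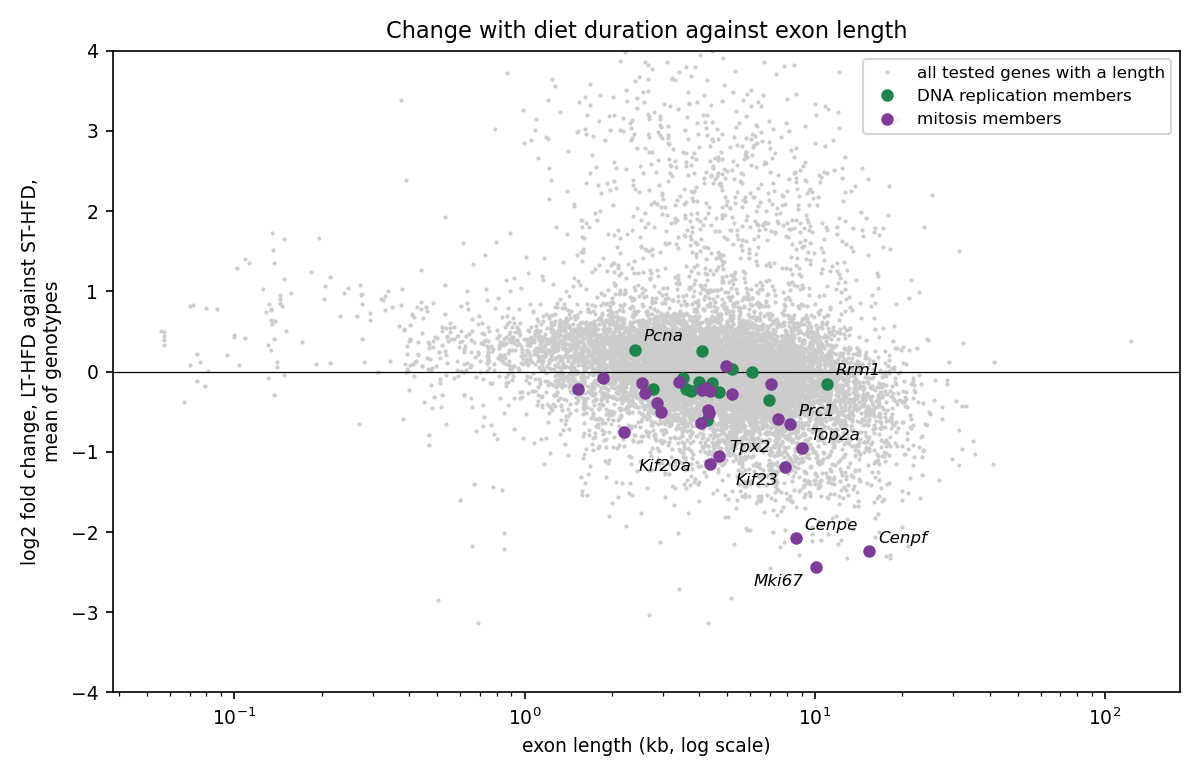
Mean log2 fold change of both genotypes, LT-HFD against ST-HFD (vertical axis), against exon length in kb (horizontal log axis) for the 11362 tested genes with a length (light grey), the replication genes (green) and the mitosis genes (purple), with 15 genes beyond ±4 not drawn. Cenpf, Mki67 and Cenpe lie at long exon lengths and below -2, and Rrm1 lies at -0.15.

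Fibroblast transcripts rose with diet duration, with the summed levels given above. Of the listed markers, 10 of 10 were higher in WT (against 12.1% of all genes) and 8 of 10 in IRF5-KO (against 15.6%). The summed level of the 10 macrophage markers was 11281 to 11959 CPM (ST-HFD) against 9362 to 11525 CPM (LT-HFD) in WT, where the ranges overlapped. In IRF5-KO it was lower on LT-HFD without overlap, at 7790 to 8565 CPM against 9337 to 10163 CPM. The list includes Csf1r, given below, and Lyz2, which was lower in all IRF5-KO libraries. These sums therefore do not compare the macrophage content of the genotypes. WT LT-HFD replicate 4 held the highest fibroblast sum (9357 CPM) and the lowest mitosis sum (238 CPM). The part of these markers in the levels of the cell cycle genes was not tested.

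Further genes of the same pathways were read as lists, each given with its count of calls, to be read against the 13.2% of all genes that were lower and 12.1% that were higher in WT and the 17.2% and 15.6% in IRF5-KO. Of 39 other mitosis genes that passed the filter, 10 were lower (25.6%) and none higher in WT, and 8 were lower (20.5%, near the share of all genes) and 1 higher (Cenpa, named after its value was seen) in IRF5-KO. Smc4, a core condensin subunit, fell from 98.7, 64.8, 72.6 and 100 CPM to 39.1, 32.5, 45.3 and 30.2 CPM in WT, a log2 fold change of -1.19 (SE 0.16), and by 1.05 in IRF5-KO (SE 0.16). Incenp, the scaffold of the chromosomal passenger complex, had log2 fold changes of -1.09 (SE 0.18) and -1.26 (SE 0.19). Smc2 and the chromokinesin Kif4 were lower in both genotypes as well, with log2 fold changes of -1.10 and -1.54 in WT.

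Of 32 other replication genes, 7 were lower (21.9%) and none higher in WT, and 7 were lower (21.9%) and 1 higher (Dut, named after its value was seen) in IRF5-KO. Rfc1, the large subunit of the factor that loads the PCNA clamp, was lower in both (log2 fold changes -1.28, SE 0.12, and -1.47, SE 0.12), opposite in sign to Pcna. Dnmt1, the maintenance methyltransferase that works with Uhrf1, was at -1.42 (SE 0.14) in WT and -1.13 (SE 0.14) in IRF5-KO. The DNA ligase gene Lig1 and the polymerase gene Pole were lower in both genotypes too, at -1.11 and -1.16 in WT.

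Among the transcription factors that control these genes, 7 of 19 were lower in WT (36.8%) and 4 of 19 in IRF5-KO (21.1%, near the 17.2% of all genes), with none higher. Foxm1, an activator of mitosis genes at CHR promoters, was 23.8, 18.8, 16.2 and 35.1 CPM in WT on ST-HFD and 8.14, 7.34, 11.4 and 7.07 CPM on LT-HFD (log2 fold change -1.47, SE 0.27), and -0.99 (SE 0.26) in IRF5-KO. Mybl2, the B-Myb partner of the same complex, was at -1.05 (SE 0.33) and -1.22 (SE 0.35), on levels under 10 CPM. E2f8, a repressor of the E2F family, was at -1.73 (SE 0.30) in WT, and E2f4, a DNA-binding subunit of DREAM, at -0.66 (SE 0.12) in WT and -0.60 (SE 0.12) in IRF5-KO. E2f1 did not pass in either (-0.35, SE 0.22, and 0.11, SE 0.22).

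Genes of entry into the cycle were read against the same shares, 12.1% of all genes being higher in WT and 15.6% in IRF5-KO. Of 9 G1 cyclin and kinase genes, 1 was higher in WT (Ccnd2, log2 fold change 0.92, SE 0.32, edgeR adjusted p 0.0470) and none passed in IRF5-KO, where Ccnd2 was at 0.72 (SE 0.32). Ccnd1 and Ccnd3 lay between -0.20 and 0.11. Of 5 inhibitor genes tested, Cdkn1c was higher in both genotypes (log2 fold changes 1.51, SE 0.32, and 1.90, SE 0.34), and Cdkn1b passed in IRF5-KO alone (0.49, SE 0.16), a difference between genotypes that did not pass its own test. Cdkn1a was at 0.40 (SE 0.18) and 0.07 (SE 0.18). Of 8 p53 response genes, 1 was higher in WT, and 1 was higher and 1 lower in IRF5-KO.

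Of 14 genes of macrophage growth signals and self-renewal, 1 was higher and 5 were lower in WT (35.7%, against 13.2% of all genes), and 1 was higher and 9 were lower in IRF5-KO (64.3%, against 17.2%). Csf1r, the receptor whose signal keeps macrophages alive and dividing, was 1764, 2149, 1934 and 1663 CPM in WT on ST-HFD and 1297, 1387, 1154 and 1057 CPM on LT-HFD (log2 fold change -0.62, SE 0.12), and -0.88 (SE 0.12) in IRF5-KO. Its ligand gene Csf1 was higher, at 4.29, 7.43, 5.82 and 6.22 CPM against 21.2, 20.6, 10.0 and 47.3 CPM in WT (log2 fold change 2.06, SE 0.42), and 1.64 (SE 0.41) in IRF5-KO. The highest Csf1 level was in WT LT-HFD replicate 4, the library with the highest fibroblast sum. The transcription factor gene Klf4 was lower in both, at -1.30 (SE 0.28) and -1.83 (SE 0.28). Myc did not pass (0.13, SE 0.19, and 0.01, SE 0.19).

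Between genotypes, none of the 40 genes differed on ST-HFD (0 of 40, against 0.00913% of 10958 genes tested) or on LT-HFD (0 of 40, against 0.0182% of 10987 genes tested) by edgeR's quasi-likelihood test. At an unadjusted p under 0.05, 1 gene differed on ST-HFD (Rrm2, lower, 2.50% of the 40 against 1.84% of all genes), and 1 on LT-HFD (Kif20a, higher, against 5.72%). DESeq2 called none of the 40 either, and none of them had genotype groups without overlap, against 1.47% (ST-HFD) and 3.01% (LT-HFD) of all genes. The SEs of the 40 log2 fold changes ran from 0.11 to 0.47 on ST-HFD and from 0.13 to 0.46 on LT-HFD.

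The direction of the small genotype differences was shared by most members and opposite at the 2 durations. On ST-HFD 38 of 40 log2 fold changes were below 0 (49.3% of all genes), with a median of -0.21 (0.00 over all genes). On LT-HFD 36 of 40 were above 0 (50.1% of all genes). Of the 40, 35 were below 0 on ST-HFD and above 0 on LT-HFD, a share that was not computed over all genes. The median on LT-HFD was 0.31. These medians rested on single libraries: the ST-HFD median was -0.02 without WT replicate 4, -0.07 without IRF5-KO replicate 3 and -0.13 without WT replicate 1, and ran to -0.36 without WT replicate 2. The LT-HFD median was 0.13 without WT replicate 4, 0.15 without IRF5-KO replicate 2 and 0.16 without WT replicate 2, and 0.55 without WT replicate 3. Members rise and fall together within a library, so that 40 genes do not amount to 40 observations.

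That shared movement was visible in the ST-HFD libraries. Replicates 1 and 4 of WT had mitosis sums of 1076 and 1298 CPM against 656 and 613 CPM in replicates 2 and 3, and the IRF5-KO libraries of the same numbers followed the same order between pairs, at 979 and 948 CPM against 744 and 548 CPM. The replication sums were 797, 635, 629 and 822 CPM in WT and 730, 596, 515 and 731 CPM in IRF5-KO. They were lower in IRF5-KO at each number, while the mitosis sum was higher in IRF5-KO at replicate 2. Over all genes, WT and IRF5-KO libraries of equal number on ST-HFD deviated together (correlations of 0.18 to 0.49), although 2 pairs of unequal number reached 0.42 and 0.48. With the replicate number as a block 7 members had an unadjusted p under 0.05, all lower in IRF5-KO (17.5% of the 40, against 1.82% of all genes that were lower at that p), none of which passed after adjustment. These were Mcm7, Rrm2, Mcm5, Mcm3, Plk1, Top2a and Mcm2. In this blocked fit Rrm2 was at -0.55 and Mcm5 at -0.28.

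The test of whether the genotype difference changed with diet duration called none of the 40 genes and none of the 11560 genes tested (0%). None of the 40 had an unadjusted p under 0.05, against 3.93% of all genes, and the smallest was that of Rrm2 (log2 difference 0.91, SE 0.45, unadjusted p 0.0579). With the replicate number within each duration as a block, 7 members had an unadjusted p under 0.05, all above 0 (17.5% of the 40, against 2.28% of all genes above 0 at that p), and none passed after adjustment. These were Kif20a, Rrm2, Rrm1, Mcm5, Uhrf1, Top2a and Tpx2. This block also joins LT-HFD libraries of equal number, which did not meet the criterion for pairing (correlations of -0.15 to 0.24). Members also move together within a library, so that these 7 are not separate observations. DESeq2 called none either. For the 6 genes called with diet duration in WT but not in IRF5-KO, edgeR gave 1.07 (SE 0.55) for Kif20a as the largest, with an adjusted p of 0.969. All but Pcna had a difference above 0 (39 of 40, against 48.8% of all genes), with a median of 0.57, which was 0.32 without WT ST-HFD replicate 4, 0.36 without WT LT-HFD replicate 4, 0.36 without IRF5-KO LT-HFD replicate 2 and 0.37 without IRF5-KO ST-HFD replicate 3. Averaged over both durations, none of the 40 genes differed between genotypes (0.0173% of all genes did), with a median of 0.01. That median ran from -0.06 without WT LT-HFD replicate 4 to 0.14 without WT LT-HFD replicate 3.

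**Figure D5:**
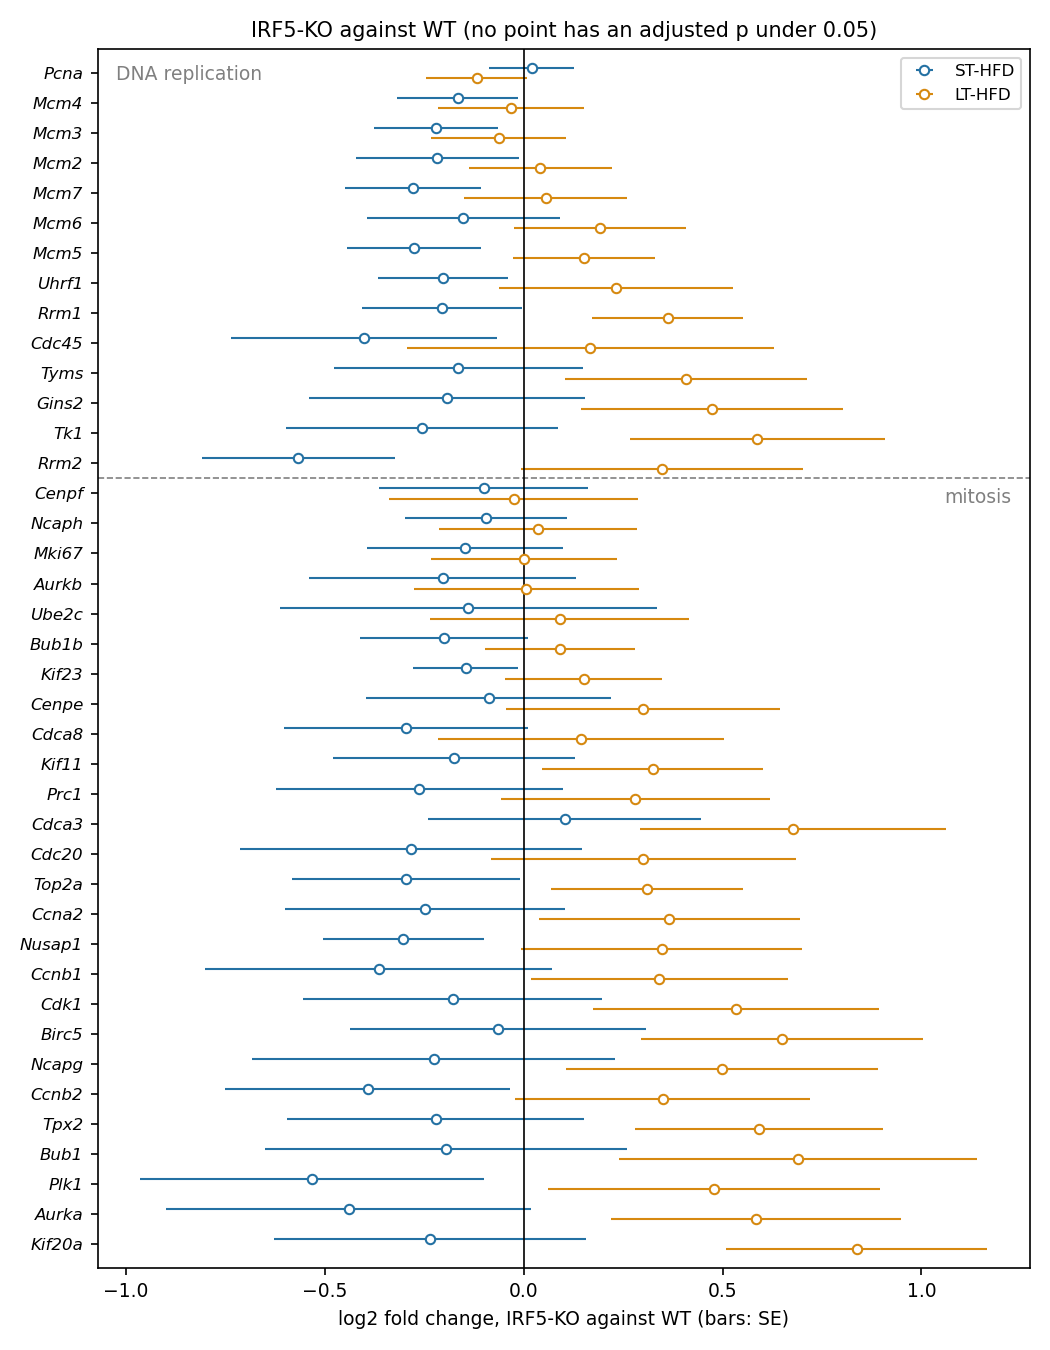
Log2 fold change of each of the 40 genes, IRF5-KO against WT (horizontal axis), on ST-HFD (blue) and LT-HFD (orange), with SE bars, replication genes above the dashed line and mitosis genes below. Most ST-HFD points lie below 0 and most LT-HFD points above it, and none has an adjusted p under 0.05.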

How the data were processed

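Strand-specific total RNA libraries were made by the study from F4/80+ cells and sequenced in paired ends. The deposited values are raw counts per gene, which per the labels and methods the authors obtained with fastp 0.19.11 and STAR 2.7.3a on the mm10 build (mm9 is also named in the submitters' processing notes). The annotation release and the strand setting are not given in the sources used here. Symbols and IDs came from the table, and 32620 of 37310 IDs matched GENCODE M21, which gave exon lengths (union of exons) and overlaps on GRCm38.

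Counts were analysed in edgeR 4.0.16 (R 4.3.3) with TMM scaling, edgeR's filter on low counts and the quasi-likelihood test, with Benjamini-Hochberg adjustment over all genes tested and a threshold of 0.05. Genotype was tested within each duration on the 8 libraries concerned, and duration and the interaction on all 16, each two-sided. DESeq2 1.42.0, another scaling, other filters, leaving out 3 abundant features, offsets for exon length and GC content (added after seeing the data), limma 3.58.1 with a correlated block (also added), a replicate block and leaving out each library in turn were alternatives. The pipeline was tested on simulated data.

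Replicate numbers were taken from the titles. On ST-HFD the deviations of WT and IRF5-KO libraries of equal number correlated at 0.38, 0.49, 0.18 and 0.30, so that these numbers met the criterion for pairing (every correlation over 0.1), although unequal numbers reached 0.48, while LT-HFD pairs ran from -0.15 to 0.24 and did not. The main test had no block, and the blocked fit is given beside it where it differed. For diet duration the block joined libraries of equal number across ST-HFD and LT-HFD, which come from different mice. Their correlations ran from -0.21 to 0.37 in WT and from -0.39 to -0.02 in IRF5-KO, so that this block did not meet the criterion. No 2 libraries of a group agreed within sampling noise. Intervals were not computed, and the number of libraries limits the precision.

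The members and lists were chosen with earlier results of these data known. Values by library are given for 10 members fixed by name and for the members with the smallest p among those called. Of the other lists, up to 5 called genes were named in each comparison, together with 12 regulators (1 of them is not reported here), and Irf5 and Lyz2 as checks of the labels. Genes named beyond this rule are marked. Promoter windows were those of RefSeq on GRCm38.p6.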

Additional observations from a re-analysis of the deposited data

Results flagged for a closer look

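Within groups of 4 libraries, 52 sets of values (the 10 members given by library, the class sums and their ratio) were screened for a library whose gap to its nearest neighbour was beyond Dixon's critical value relative to the group's range, which chance alone meets in about 1 of 20 groups, and 3 exceeded it. Mki67 in WT on LT-HFD was 31.8 CPM in replicate 4 against 60.8 to 64.5 CPM in the other libraries. That library also had the highest fibroblast marker sum, at 9357 CPM, and without any 1 library the WT change of Mki67 ran from -2.69 to -2.32. Pcna in IRF5-KO on ST-HFD was 167 CPM in replicate 2 against 126 to 131 CPM in the others. Ccnb1 in IRF5-KO on LT-HFD was 11.1 CPM in replicate 4 against 8.02 to 8.43 CPM, a difference resting on 29 to 36 counts per library. No member's genotype difference changed between durations past the threshold.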

How the results depend on the processing

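Across DESeq2, RLE scaling, no filter, a mean count of at least 20, leaving out 3 abundant features, offsets for exon length and GC content, a replicate block and fits to fewer or more libraries, the number of members called stayed within 1.5 times that reported in each comparison, and no member was called between genotypes. Leaving out 1 library gave 7 to 17 calls with diet duration in WT (7 without WT LT-HFD replicate 2 and 17 without WT LT-HFD replicate 3), 4 to 5 in IRF5-KO and 12 to 17 over both genotypes. The causes were not tested. With the replicate block, 10, 4 and 12 members were called in these comparisons. The block lost the calls of Pcna in WT and of Mcm2 and Kif11 over both genotypes and changed no other. Between diet durations the replicate numbers did not meet the criterion for pairing. Counting the CHR as TTTGAA alone lowered its share among replication members from 50% to 16.7%, since fewer sequences count.

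Small changes that were not called crossed 0 under some settings. For Mki67 the genotype difference on LT-HFD, at 0.00, was -0.0026 with DESeq2, -0.0014 with RLE scaling, -0.00044 without 3 abundant features and -0.0043 with length and GC offsets. With the offsets, the change with diet duration in IRF5-KO was -0.030 for Ccna2 and -0.014 for Pcna, the genotype difference of Top2a over both durations was -0.0054, and the change of Tyms over both genotypes was 0.025 (0.012 with a mean count of at least 20 and 0.0098 with the block). The block gave Ccnb1 a genotype difference of 0.042 over both durations.

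Some small log2 values changed sign when 1 library was left out. The genotype difference on ST-HFD ran from -0.33 to 0.036 for Mki67, -0.48 to 0.10 for Ccna2, -0.41 to 0.091 for Cdk1, -0.25 to 0.29 for Birc5 and -0.079 to 0.058 for Pcna. On LT-HFD it ran from -0.19 to 0.15 for Mki67. The interaction ran from -0.045 to 0.33 for Mki67. The change with diet duration in IRF5-KO ran from -0.25 to 0.25 for Ccna2, -0.015 to 0.60 for Ccnb1, -0.12 to 0.40 for Birc5 and -0.025 to 0.17 for Mcm5. Over both genotypes it ran from -0.38 to 0.027 for Ccnb1, -0.11 to 0.21 for Cdk1, -0.30 to 0.047 for Birc5 and -0.12 to 0.10 for Tyms. The genotype difference over both durations ran from -0.16 to 0.019 for Mki67, -0.089 to 0.11 for Top2a, -0.092 to 0.23 for Ccna2, -0.24 to 0.18 for Ccnb1, -0.11 to 0.0056 for Mcm5 and -0.24 to 0.082 for Rrm2.

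What limits these results is the number of libraries and, for Plk1, Ccnb1, Tyms, Bub1 and Cdc45, the few counts behind each value. The lowest values of Kif20a, Cenpe, Aurka, Ncapg, Cdc20 and Cdca3 rest on few counts as well. Diet duration moves with age, depth, the shares of counts in long genes and in the 3 most counted features, and fibroblast transcripts, and these cannot be told apart from it by comparing groups. The genotype effect on low members is known only to within the standard errors given.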

Other observations

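Other cell types were read from marker lists. Summed dendritic cell markers were 47.3 to 112 CPM in WT on ST-HFD and 46.7 to 119 CPM on LT-HFD, and 49.3 to 131 CPM and 17.1 to 67.0 CPM in IRF5-KO. Monocyte markers were 164 to 251 CPM and 235 to 438 CPM in WT, and 176 to 239 CPM and 161 to 305 CPM in IRF5-KO. B and plasma cell markers were low but apart between durations in WT (9.05 to 16.4 against 31.8 to 41.4 CPM) and in IRF5-KO (4.81 to 20.6 against 25.2 to 43.9 CPM), and mast cell markers stood at 0 to 3.71 CPM against 4.19 to 11.7 CPM in WT and at 0.401 to 1.48 CPM against 7.86 to 24.9 CPM in IRF5-KO. Adipocyte markers were apart in WT (154 to 182 against 116 to 143 CPM) and overlapped in IRF5-KO (152 to 178 against 100.1 to 169 CPM). T and NK cell markers summed to at most 12.3 CPM and neutrophil markers to at most 3.25 CPM in any library. The part of these cells in the cell cycle transcripts was not tested.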
